A study of Mus musculus with 6 samples.

Results

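Interferon-stimulated genes are the targets that a cell switches on when it senses interferon, and 41 of them were followed here in macrophages sorted from injured mouse sciatic nerve. They were chosen by gene symbol, as rows of the deposited expression tables, and all 41 were found among 24822 gene rows. All 41 also passed the filter on low counts, so none is missing from the 11354 genes tested. The animals were C57BL/6 mice of the genotype Macblue x Cx3cr1egfp/+, in which fluorescent reporters tell macrophage populations apart, and all had CCI, a nerve injury, 14 days before the cells were taken. Within the gate CD64+ CD11b+ SiglecF- Ly6G-, cells with EGFP were taken as the resident population and cells with ECFP as the newly recruited population, both from the injured side, so no uninjured nerve enters the comparison. In Cx3cr1egfp/+ mice EGFP replaces an allele of Cx3cr1, so both groups lack that copy, and the Macblue transgene drives ECFP from Csf1r promoter sequence. Each group had 3 libraries, and each library held RNA of about 400 cells pooled from 3 mice. The labels do not give the age of the animals, and the population names rest on the reporters.

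Type I interferons signal through the receptor chains Ifnar1 and Ifnar2 to a transcription factor complex that includes Stat2 and Irf9 and binds a promoter sequence called the interferon-stimulated response element. Interferon gamma, the type II interferon, signals through Ifngr1 and Ifngr2 to factors that bind gamma-activated sites. Many targets answer to both, but genes such as Ifit1, Rsad2 and Isg15 lean to type I, while the vacuole-attacking GTPases of the IRG and GBP families lean to type II. The members were divided this way into 28 type I leaning genes, 7 type II leaning genes and 6 placed in neither class. In macrophages these genes encode defences against viruses and intracellular microbes.

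The response element was visible in the promoters of the members. RefSeq promoter windows (GRCm38.p6, the mm10 build) were matched by symbol for 29 of the 41 genes, and the 250 bases before each start were searched on both strands for GAAA followed, after any 2 bases, by a second GAAA, the core of the element. Matches that overlap were all counted. It was found for 14 of the 29 genes, or 48.3%, against 3.46% of all 27025 genes in the table. The sequence TTCNNNGAA, the core of a gamma-activated site, which reads the same on both strands, was found for 7 of them, or 24.1%, against 8.13% of all genes. The windows below are the last 160 bases before the start of 3 type I leaning and 3 type II leaning genes, all described further on. They are written 5′ to 3′ on the strand of the gene, and the capitals mark this paired GAAA motif, which reads TTTC, 2 bases, TTTC on the other strand. They were chosen with the values known.
Isg15, chr4:156200819-156200978, minus strand: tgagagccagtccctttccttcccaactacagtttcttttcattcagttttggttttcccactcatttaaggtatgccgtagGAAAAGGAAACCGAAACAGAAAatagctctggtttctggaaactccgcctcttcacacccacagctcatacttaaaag
Ifit1, chr19:34640729-34640888, plus strand: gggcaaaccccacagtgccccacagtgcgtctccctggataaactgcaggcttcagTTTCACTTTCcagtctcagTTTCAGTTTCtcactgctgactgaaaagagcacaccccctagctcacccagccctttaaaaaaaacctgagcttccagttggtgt
Ifit3, chr19:34583369-34583528, plus strand: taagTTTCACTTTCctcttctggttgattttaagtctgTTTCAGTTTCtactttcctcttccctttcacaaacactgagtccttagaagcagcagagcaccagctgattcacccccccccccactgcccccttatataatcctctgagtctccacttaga
Irgm1, chr11:48871421-48871580, minus strand: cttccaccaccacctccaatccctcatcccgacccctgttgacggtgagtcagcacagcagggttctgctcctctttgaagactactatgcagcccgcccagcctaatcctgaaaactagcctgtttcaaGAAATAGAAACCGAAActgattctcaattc
Gbp2, chr3:142620503-142620662, plus strand: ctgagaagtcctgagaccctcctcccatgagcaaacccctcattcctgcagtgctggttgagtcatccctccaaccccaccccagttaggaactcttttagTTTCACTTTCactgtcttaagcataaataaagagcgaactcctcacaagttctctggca
Gbp3, chr3:142559884-142560043, plus strand: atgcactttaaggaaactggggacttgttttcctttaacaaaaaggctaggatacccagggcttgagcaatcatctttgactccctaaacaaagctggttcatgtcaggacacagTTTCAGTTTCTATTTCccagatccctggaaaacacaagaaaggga
Isg15 carries 3 overlapping matches, Ifit1, Ifit3, Irgm1 and Gbp3 carry 2 each and Gbp2 carries 1. A match is a stretch of letters, not a shown binding site.

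Libraries held 16688848 to 27547336 expected counts, and 3 counts correspond to 0.105 to 0.179 CPM, the count scale corrected for library size. The 8 listed macrophage markers were read in every library and summed to 37394 to 40369.5 CPM in resident and 35696 to 46544 CPM in recruited libraries. Lyz2 made most of this, at 32523 to 35534 and 30003 to 40440 CPM. Aif1 was higher in resident libraries without overlap, at 345 against 144 CPM. Itgam, at 515 against 946 CPM, and Cd68, at 2055 against 2525 CPM, were higher in recruited ones without overlap. Their adjusted p were 0.0493, 0.137 and 0.248 (edgeR quasi-likelihood test). Of the T and NK cell list, Nkg7, Gzma and Ncr1 had no count in any library, and Cd2 made most of its sum of 40.6 to 58.5 CPM in resident and 22.3 to 29.2 CPM in recruited libraries. The neutrophil list, with Ly6g and Ngp at 0, summed to 109 to 136 and 231 to 295 CPM. Within it only Mmp8 and Mmp9 separated the groups without overlap, both higher in recruited libraries. Their resident means were 3.89 and 3.21 CPM, and their recruited means were 61.8 and 38.8 CPM. Neither passed (edgeR quasi-likelihood test, adjusted p = 0.138 and 0.117). S100a8, S100a9 and Csf3r had higher recruited means too, but their libraries overlapped. Whether recruited pools held more neutrophils was not tested. The monocyte list summed to 1695 to 2623 and 1896 to 2843 CPM, but its genes differed in direction. Ccr2 was higher in resident libraries without overlap, at 959 against 485 CPM. Vcan, at 11.4 against 31.7 CPM, and Hp, at 513 against 826 CPM, were higher in recruited libraries without overlap. Of all tested genes 12.6% lay apart toward resident and 12.2% toward recruited cells. The lowest adjusted p in the monocyte list was 0.0933 (edgeR quasi-likelihood test). The plasmacytoid dendritic cell list, with Ly6d, Pacsin1 and Klk1 at 0, summed to 52.2 to 82.9 and 52.4 to 56.1 CPM. Tcf4 made most of this, at 31.6 to 68.4 and 37.8 to 48.7 CPM. Siglech, at 1.52 against 0.127 CPM, and Cox6a2, at 1.48 against 0.407 CPM, were low but higher in resident libraries without overlap. Ccr9 was read only in recruited libraries, at a mean of 0.353 CPM. Conventional dendritic cell markers summed to 131 to 623 CPM in resident and 74.2 to 217 CPM in recruited libraries, with none at 0. Fibroblast markers, without any Pdgfra, summed to 605 to 824 and 673 to 812 CPM, and Gsn made most of this, at 548 to 799 and 664 to 797 CPM. Col1a2, at 8.69 against 0.983 CPM, and Col3a1, at 18.8 against 3.22 CPM, were higher in resident libraries without overlap. Of the 6 tested genes of this list 4 lay toward resident and 2 toward recruited cells, and the lowest adjusted p was 0.105 (edgeR quasi-likelihood test). Endothelial markers, with Emcn at 0, summed to 14.3 to 20.1 and 5.97 to 17.3 CPM, and Schwann cell markers, with Sox10 and Ncam1 at 0, to 233 to 294 and 239 to 531 CPM. Pmp22 made most of the Schwann cell sum, at 195 to 237 and 180 to 498 CPM. Resident replicates 2 and 3 stood apart. Their log2 CPM correlated at 0.838 with each other and at 0.858 to 0.880 with the remaining libraries, whereas resident replicate 1 and the 3 recruited libraries correlated at 0.918 to 0.955 among themselves (Pearson's r across 11354 genes, which are not independent replicates).

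The members split into a small abundant set and a long low tail. On the FPKM scale, which divides by transcript length and so allows levels of different genes to be compared, Ifitm3 led with a mean of 2951 FPKM in resident and 2330 FPKM in recruited libraries. Ifitm2 followed at 2050 and 1472 FPKM, and Ifi27l2a at 2264 and 631 FPKM. Bst2, at 163 FPKM over the 6 libraries, and Rtp4, at 110.3 FPKM, came next. At the other end Ifi44, Mx1, Mx2, Oas3 and Parp14 stayed under 3 FPKM in both group means, as did Iigp1 in recruited cells, at 0.580 FPKM. Interferon-stimulated transcripts were thus read in both populations 14 days after injury.

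Ifi27l2a was the member that edgeR called between the populations, at an adjusted p under 0.05. It encodes a small interferon-induced membrane protein of the ISG12 family. Resident libraries held 603, 720.1 and 604 CPM and recruited libraries 229, 172 and 115 CPM. Every resident library was above every recruited one, and the mean of 642 ± 67.5 CPM against 172 ± 57.1 CPM (SD, n = 3) was a 3.73-fold higher level in resident macrophages (log2 difference, recruited minus resident, -1.90 ± 0.24 SE, edgeR quasi-likelihood test, adjusted p = 0.0248). In these bulk libraries fewer expressing cells and less RNA per cell cannot be told apart. Ifi27l2a was 1 of 41 members past the threshold of an adjusted p of 0.05, where 0.317% of all tested genes passed in either direction, 0.255% toward resident and 0.0617% toward recruited cells. The call did not hold in every setting. Without resident replicate 2 or 3 the adjusted p was 0.0799 or 0.0800, and without recruited replicate 1 or 2 it was 0.0527 or 0.142, all with log2 differences of -2.16 to -1.81. Without resident replicates 2 and 3 together, which leaves 1 resident library assumed to vary like the recruited ones, the log2 difference was -1.81 and the adjusted p 0.125. The gene lies on chromosome 12 at 103433873 to 103443680 (GRCm38.p6) and its annotated span overlaps that of Ifi27. Whether counting used the strand is not stated, so reads of this pair may not be separable.

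**Figure D1:**
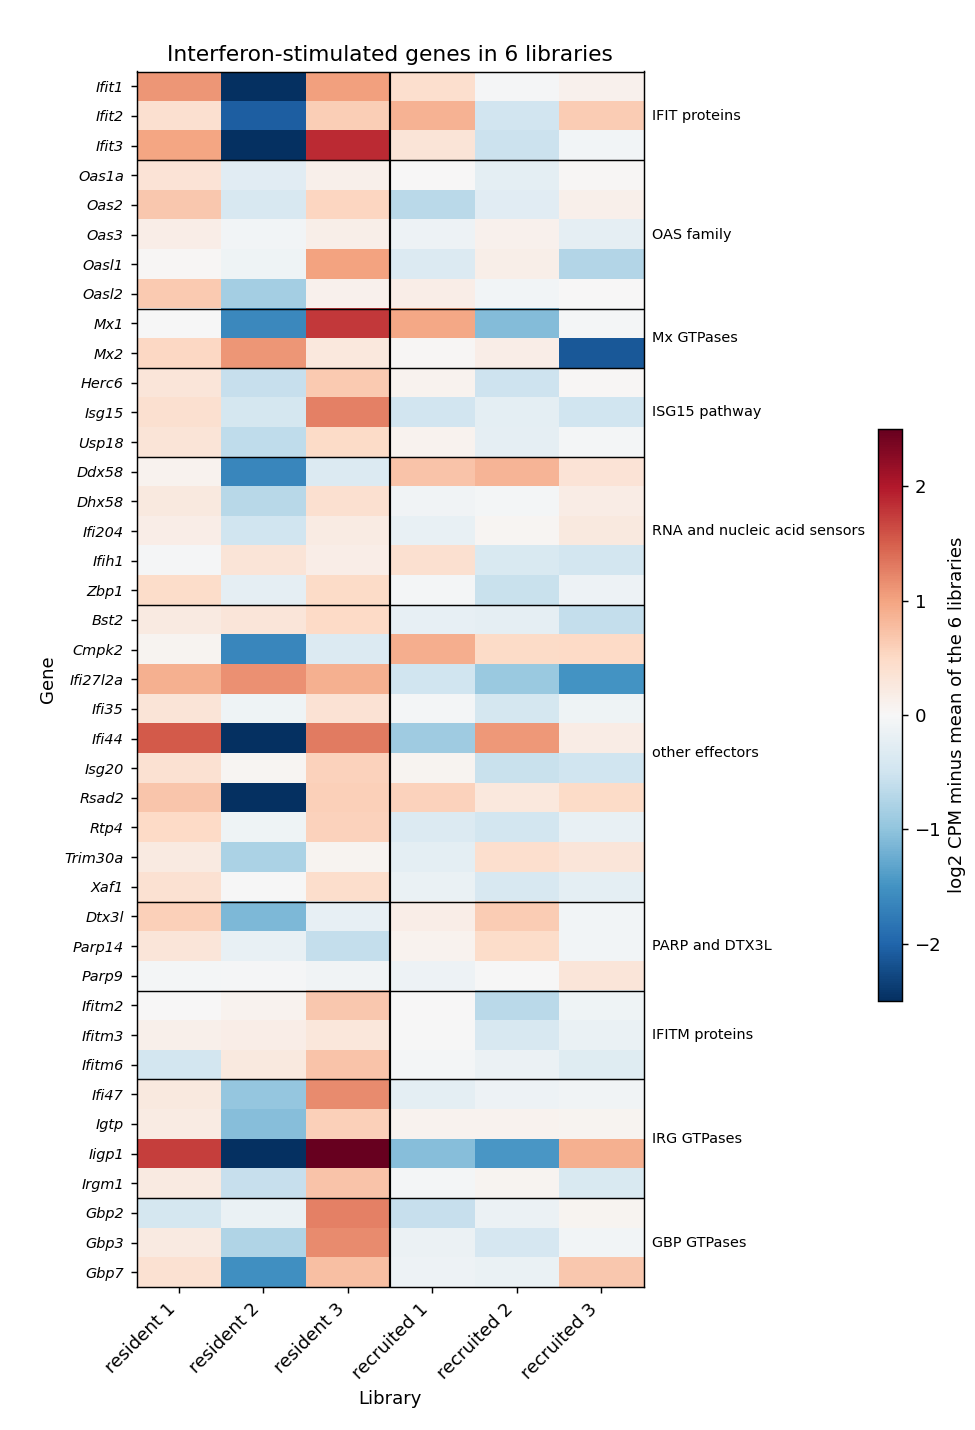
Level of each of the 41 genes (rows, grouped by role) in each of the 6 libraries (columns, resident left and recruited right), as log2 CPM minus the mean of that gene over the 6 libraries, with colours capped at 2.5 in either direction (6 cells lie beyond). Resident replicate 2 is the lowest library for 22 genes and resident replicate 3 the highest for 23, while the 3 recruited libraries look alike.

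Ifi27l2a is also the shortest member by effective transcript length, at 279 bases as implied by its counts and FPKM values. Across tested genes the log2 difference rose with length, with a Spearman rho of 0.375 over 10633 genes and 0.561 over the 41 members. Within single libraries, the rho of length with the deviation from the gene mean over those 10633 genes was 0.12, -0.27 and -0.32 in resident replicates 1 to 3. In the recruited replicates it was 0.23, 0.34 and 0.28. Short transcripts thus stood higher in resident replicates 2 and 3, while resident replicate 1 leaned to long ones as the recruited libraries did. These are descriptions over genes, which share the same 6 libraries. When each library was corrected for this length trend, a step added after the data were seen, the log2 difference of Ifi27l2a was -1.28 ± 0.23 SE with an adjusted p of 0.0953 by edgeR, and no member passed. An unadjusted p under 0.05 was reached in that fit by 5 members, or 12.2%, against 13% of all tested genes.

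**Figure D2:**
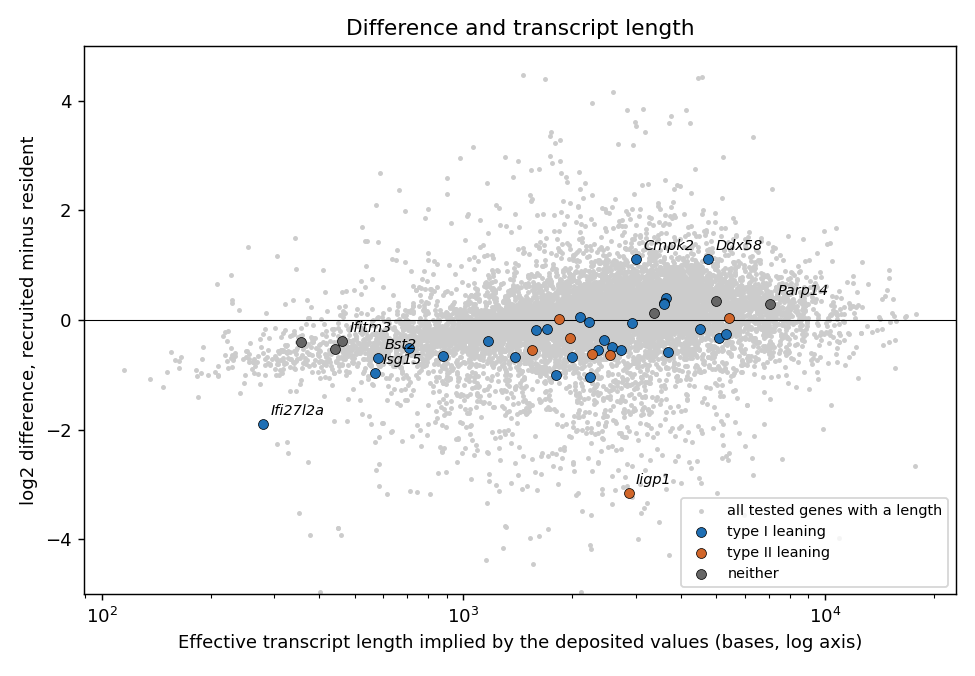
Log2 difference, recruited minus resident, of each tested gene (vertical axis) against its effective transcript length in bases (horizontal log axis), with 10633 genes in grey, 21 of them outside the plotted range of 5 log2 units either way, and the members in colour by class. Short members such as Ifi27l2a, Bst2, Isg15 and Ifitm3 lie below 0. Long members lie on both sides, with Ddx58 and Parp14 above 0 and Herc6, Ifih1 and Oas3 below it.

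As a whole the members lay on the resident side of 0, by a margin that turned on single libraries. Of 41 genes 30 had a negative log2 difference, or 73.2%, against 49% of all tested genes. The median was -0.38, against 0.01 over all genes. Without resident replicate 2 the median was -0.60, and without resident replicate 3 it was -0.05. At an unadjusted p under 0.05, 6 members stood toward resident cells, where 8.65% of all genes did, and 2 toward recruited cells, where 8.13% did. All resident libraries were above all recruited ones for 7 members (17.1%, against 12.6% of all genes), and the reverse held for 2 (4.88%, against 12.2%). DESeq2 called 3 members, Ifi27l2a, Bst2 and Rtp4, all higher in resident cells. It called 6.17% of all genes, 3.45% toward resident and 2.72% toward recruited cells.

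**Figure D3:**
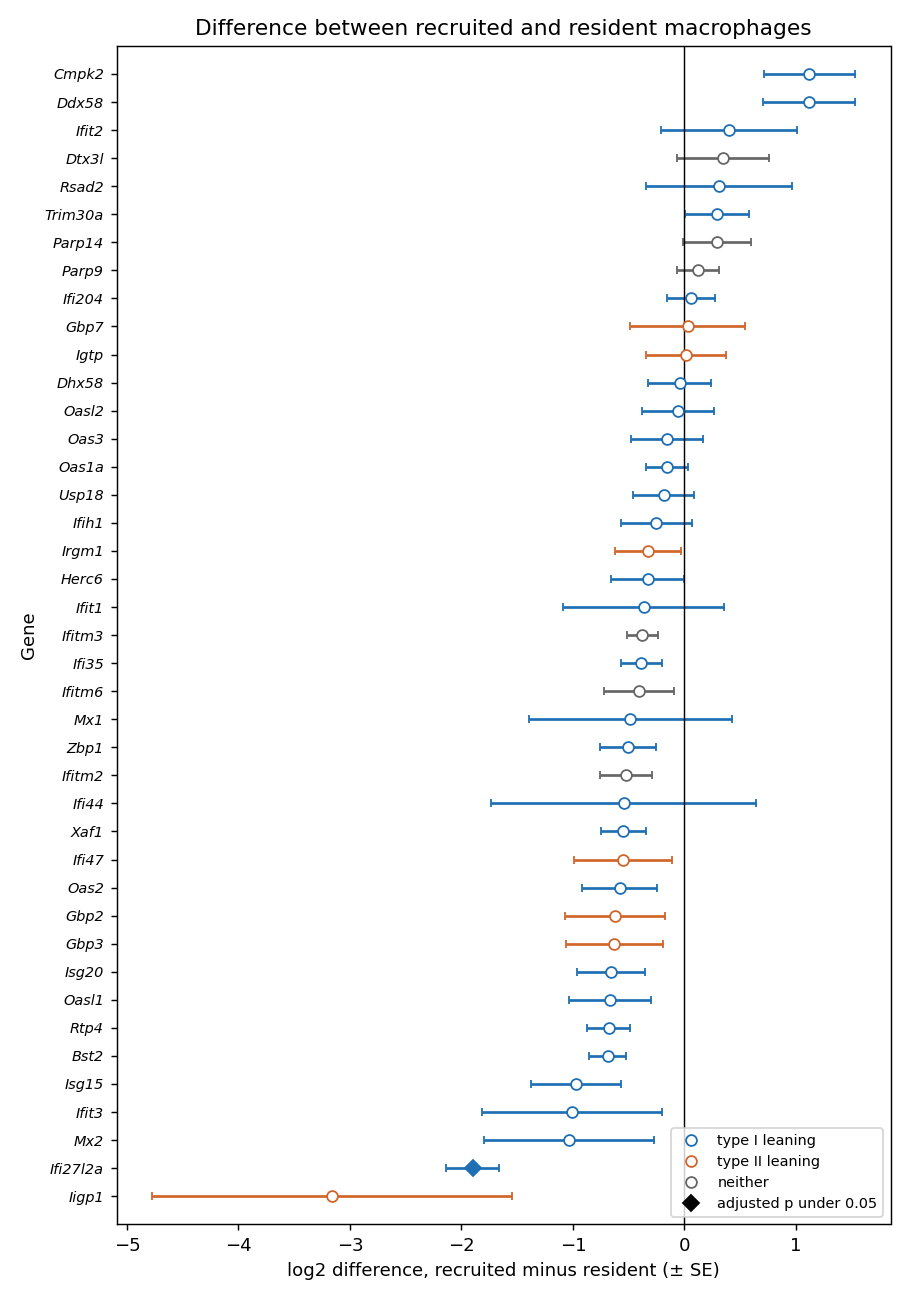
Log2 difference, recruited minus resident, with its standard error (bars) for the 41 genes, coloured by class, from edgeR with 3 libraries a group. Ifi27l2a, the filled diamond at -1.90, is the member past an adjusted p of 0.05, and open circles are members that did not pass.

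Among the other effectors, Bst2 and Rtp4 followed the pattern of Ifi27l2a at a smaller size. Bst2 encodes tetherin, which holds budding virus particles at the cell surface. It was read at 108, 114 and 130.4 CPM in resident and at 79.6, 78.3 and 60.5 CPM in recruited cells. The groups did not overlap, and the log2 difference was -0.69 ± 0.16 SE (edgeR adjusted p = 0.120, DESeq2 adjusted p = 0.00899). After the length correction it was -0.25. Rtp4, a chaperone of membrane receptors, was read at 208, 137 and 220.0 CPM in resident and at 117, 107 and 129 CPM in recruited libraries. Again all resident libraries were above all recruited ones, though resident replicate 2 came close to recruited replicate 3 (log2 difference -0.68 ± 0.19 SE, edgeR adjusted p = 0.158, DESeq2 adjusted p = 0.0293). Xaf1, an antagonist of a caspase inhibitor, stood at 46.0, 35.1 and 47.8 CPM in resident replicates and at 31.5, 26.9 and 29.7 CPM in recruited replicates. Its log2 difference of -0.55 ± 0.20 SE did not pass in edgeR (adjusted p = 0.233). Isg20, an exonuclease, and Ifi35 had group means of 18.8 and 11.9 CPM and of 98.3 and 75.1 CPM, with overlapping libraries.

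Cmpk2 and Ddx58 pointed the other way. Cmpk2, a mitochondrial nucleotide kinase next to Rsad2 on chromosome 12, was read at 20.3, 6.17 and 15.2 CPM in resident and 36.4, 27.0 and 27.4 CPM in recruited libraries. Ddx58, which encodes the RNA sensor RIG-I, was read at 19.95, 5.97 and 14.7 CPM against 30.7, 34.0 and 23.7 CPM. For both genes resident replicate 2 was the lowest library and no recruited library fell into the resident range. Their log2 differences of 1.12 ± 0.41 and 1.12 ± 0.42 (SE) did not pass in edgeR (adjusted p = 0.232 and 0.240), and over all alternatives the adjusted p of Cmpk2 ran from 0.0920 to 0.500 and that of Ddx58 from 0.0929 to 0.529. Rsad2, which encodes the antiviral enzyme viperin, did not separate the groups. It was read at 34.2, 3.45 and 31.9 CPM in resident and 31.6, 25.4 and 29.4 CPM in recruited libraries, so resident replicate 2 alone departed from a shared level. Trim30a, a mouse regulator of inflammatory signalling, had group means of 53.4 and 65.5 CPM. Ifi44 was low, between 0.103 CPM in resident replicate 2 and 5.21 CPM in resident replicate 1.

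The IFIT genes, whose products bind foreign RNA and block its translation, were dominated by resident replicate 2. Ifit1 was read at 55.1, 4.01 and 52.4 CPM in resident and 34.3, 24.9 and 27.6 CPM in recruited libraries. Ifit3 was read at 51.2, 4.32 and 94.1 CPM against 32.2, 17.7 and 24.6 CPM. In both genes the recruited libraries lay between the lowest and the higher resident libraries. The highest resident library of Ifit3 held 21.8 times as much as the lowest, against 1.83 times among recruited libraries. Ifit2 was lowest in the same library, at 7.46 CPM, with the other 5 between 22.6 and 57.4 CPM. None of the 3 passed in edgeR (adjusted p 0.584 to 0.853), and the sign of the Ifit1 difference, -0.36 ± 0.72 SE, turned in several alternatives. Ifit1 shares part of its span with Ifit1bl1, and RSEM divides reads that match several genes, so values within this cluster depend on that division.

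The OAS family holds sensors of double-stranded RNA, and its members overlapped between the groups. Oas1a was read at 125, 81.1 and 108 CPM in resident and 98.6, 83.1 and 100.2 CPM in recruited libraries. Oasl2 was read at 171, 59.7 and 116 CPM against 122, 103 and 109 CPM. The log2 differences were -0.16 ± 0.19 and -0.06 ± 0.32 (SE), with adjusted p of 0.729 and 0.952 in edgeR. Oasl1, which in mice represses translation of Irf7, had group means of 28.9 and 18.2 CPM with resident replicate 3 at 44.0 CPM. Oas2 had means of 31.0 and 20.7 CPM and Oas3 of 10.1 and 9.04 CPM. All 5 differences were negative and none passed.

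The ISG15 pathway attaches and removes a small ubiquitin-like protein. Isg15, the protein itself, was read at 25.3, 14.2 and 45.9 CPM in resident and 13.7, 16.2 and 13.6 CPM in recruited libraries. Resident replicates 1 and 3 stood above all recruited libraries and resident replicate 2 within them (log2 difference -0.97 ± 0.40 SE, edgeR adjusted p = 0.279). Usp18, the protease that removes Isg15 and also restrains the type I receptor, was read at 85.1, 44.2 and 95.6 CPM against 72.9, 58.6 and 66.3 CPM. Herc6, the mouse ligase, had means of 43.1 and 34.3 CPM. For Usp18 and Herc6 the resident libraries spanned the whole recruited range, and no call was made (adjusted p 0.792 and 0.665).

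The Mx genes were barely expressed. They encode dynamin-like antiviral GTPases, and the Mx1 allele of C57BL/6 mice is known to carry a deletion of coding exons. Mx1 was read at 3.63, 1.13 and 12.7 CPM in resident and 7.28, 1.67 and 3.56 CPM in recruited libraries, with wide overlap. Mx2 was read at 4.47, 6.74 and 3.74 CPM against 3.16, 3.48 and 0.642 CPM. Its groups did not overlap, but resident replicate 3 and recruited replicate 2 were nearly level, and the log2 difference of -1.04 ± 0.76 SE did not pass (adjusted p = 0.542).

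Sensors of foreign nucleic acid other than Ddx58 did not separate the populations. Zbp1, which binds Z-form nucleic acid, was read at 56.4, 35.1 and 57.0 CPM in resident and 39.5, 27.6 and 37.6 CPM in recruited libraries. Ifi204, a DNA-binding protein, was read at 94.6, 60.2 and 97.6 CPM against 74.7, 87.5 and 100.2 CPM. Both overlapped between groups, at log2 differences of -0.51 ± 0.25 and 0.06 ± 0.22 (SE). Ifih1, which encodes the sensor MDA5, had means of 17.3 and 14.5 CPM and Dhx58, its partner LGP2, of 45.5 and 44.2 CPM. None of these 4 passed in edgeR, with adjusted p from 0.359 to 0.959. The ADP-ribosylation genes overlapped too. Parp9 and its ligase partner Dtx3l, whose spans overlap, were read at 38.5, 39.0 and 37.8 CPM against 36.4, 39.9 and 49.2 CPM for Parp9 and at 42.5, 12.8 and 24.3 CPM against 31.4, 43.2 and 26.8 CPM for Dtx3l. Parp9 was thus nearly even among resident libraries, while Dtx3l was lowest in resident replicate 2. Parp14 had means of 16.9 and 20.7 CPM, and the 3 adjusted p ran from 0.689 to 0.803.

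The IFITM proteins sit in membranes and hinder virus entry, and Ifitm3 and Ifitm2 had the highest mean FPKM over the 6 libraries among the members. Ifitm3 was read at 1310.1, 1362 and 1470.3 CPM in resident and 1199, 913 and 1078 CPM in recruited libraries. Ifitm2 was read at 761, 802 and 1195 CPM against 758, 468 and 696 CPM. In both genes the groups did not overlap, with a gap of a few CPM for Ifitm2, and the log2 differences of -0.38 ± 0.14 and -0.52 ± 0.23 (SE) did not pass (edgeR adjusted p = 0.231 and 0.307). Both transcripts are short, and after the length correction their signs turned, to 0.12 and 0.01. Ifitm6, a member found in myeloid cells, had means of 28.2 and 21.3 CPM with overlap.

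Type II leaning genes were spread widely within the resident group. The IRG GTPase Ifi47 was read at 62.7, 27.2 and 120.5 CPM in resident and 44.8, 48.9 and 50.02 CPM in recruited libraries. Irgm1, a regulator of the family, was read at 106, 60.6 and 148 CPM against 87.4, 94.1 and 69.4 CPM. Both were highest in resident replicate 3 and lowest in resident replicate 2, with the recruited libraries between. Among the guanylate-binding proteins Gbp2 was read at 18.7, 22.7 and 61.6 CPM against 17.2, 23.1 and 26.7 CPM, and Gbp3 at 28.5, 14.4 and 55.5 CPM against 22.0, 18.2 and 23.4 CPM. Resident replicate 3 was the highest library for both, and the recruited values lay close together. Igtp and Gbp7 had almost the same mean in each group, 49.7 and 50.2 CPM for Igtp and 34.6 and 35.4 CPM for Gbp7. Iigp1 showed the widest range of the 7 on the log2 scale, at 6.43, 0 and 38.1 CPM in resident and 0.836, 0.621 and 3.51 CPM in recruited libraries. None of the 7 passed in edgeR (adjusted p 0.378 to 0.990). Their median log2 difference was -0.55, and it was 0.09 without resident replicate 3 and -0.85 without resident replicate 2.

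The contrast between single libraries was sharper than that between the groups. Resident replicate 3 was the highest of the 6 libraries for 23 of the 41 members, or 56.1%, where it was so for 21.2% of all tested genes. This held for all 7 type II leaning genes and for 13 of the 28 type I leaning genes. Resident replicate 2 was the lowest library for 22 members, or 53.7%, against 26.3% of all genes, among them 6 of 7 type II leaning and 15 of 28 type I leaning genes. In deviation from the gene's own mean over the 6 libraries, the median type II leaning gene stood at 0.23, -0.96 and 1.18 log2 units in resident replicates 1 to 3 and at -0.15, -0.15 and 0.06 in the recruited replicates. The median type I leaning gene stood at 0.37, -0.46 and 0.49 against -0.02, -0.24 and -0.04. Resident replicate 1 was thus above the recruited libraries in both classes, and resident replicate 2 below them. After the length correction the values for resident replicates 2 and 3 were -1.07 and 1.05 for type II leaning and -0.54 and 0.39 for type I leaning genes.

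**Figure D4:**
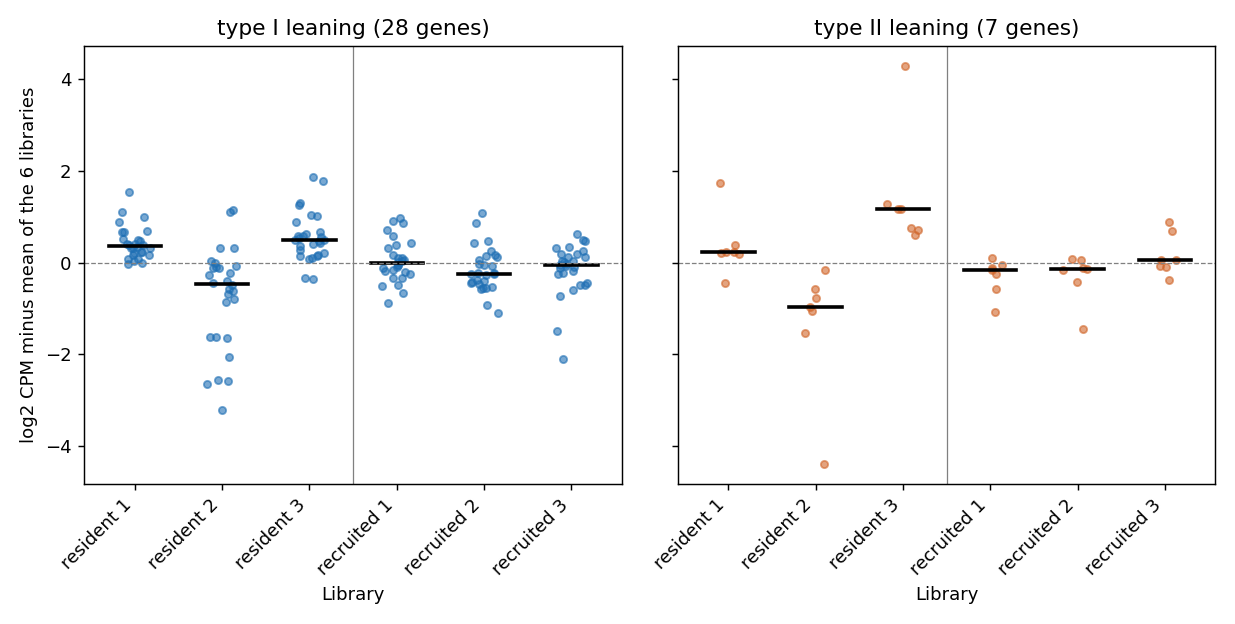
Deviation of each gene from its own mean over the 6 libraries, in log2 CPM, for 28 type I leaning genes (left) and 7 type II leaning genes (right), with a bar at the median of each library. The type II medians run from -0.96 in resident replicate 2 to 1.18 in resident replicate 3, and the recruited medians lie within 0.25 of 0 in both classes.

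The spread among resident libraries exceeded that among recruited ones. The median SD of log2 CPM over the members was 0.60 in resident and 0.24 in recruited libraries, beside 0.41 and 0.25 over all tested genes. For type II leaning genes it was 0.97 and 0.23. The SD was larger in the resident group for 32 of 41 members, or 78%, close to the 73.4% of all genes for which this was so. The summed conventional dendritic cell markers were 131, 349 and 623 CPM in resident replicates 1 to 3, and Cd209a made most of this, at 103, 314 and 588 CPM. Not all markers shared its order: in resident replicate 3 Ccr7 was at its highest, at 14.8 CPM, but Flt3 was at 5.34 CPM, its lowest resident value, and Zbtb46, Xcr1 and Itgae were at 0. The part of such cells in the high type II values was not tested. Resident replicate 2, which had the lowest member values, had a dendritic marker sum between the other two and the fewest genes with a count, 11436, where the other libraries had 11877 to 13071.

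Members with and without the paired GAAA motif in their promoter window showed similar values, and the difference was not tested. The 14 with the motif had a median deviation of -0.67 in resident replicate 2 and 0.69 in resident replicate 3. The 15 without it had -0.57 and 0.43. Their median log2 differences between the groups were -0.34 and -0.38, and no gene of either set was past the threshold, Ifi27l2a having no window in the table.

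The ligands that start the pathway were almost unread. Of 21 listed interferon genes 20 had no count in any library, Ifnb1 and Ifng among them, so that levels up to 3 counts, 0.105 to 0.179 CPM, cannot be told from 0. The exception was Ifnk, at 0.119 CPM in recruited replicate 1. The receptor chains were well expressed. Ifngr1 stood at 599 ± 151 CPM in resident cells against 624 ± 63.5 CPM in recruited cells, Ifngr2 at 203 ± 31.3 and 242 ± 18.3 CPM, Ifnar1 at 209 ± 40.3 and 262 ± 15.1 CPM and Ifnar2 at 187 ± 7.44 and 185 ± 21.0 CPM (SD, n = 3). None of the 5 tested receptor genes passed, Il10rb included, with adjusted p from 0.356 to 0.960 in edgeR.

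Transducers and regulators did not pass either. Irf7, which amplifies the type I response, was read at 217, 80.0 and 154 CPM in resident and 149.6, 84.0 and 100.4 CPM in recruited libraries. Resident replicate 2 was its lowest library, as it was for 7 of the 11 genes of the kinase and transcription factor list. Irf9 stood at 115 ± 16.6 and 89.0 ± 3.39 CPM, with no overlap (log2 difference -0.38 ± 0.15 SE, adjusted p = 0.261), Stat2 at 40.0 ± 9.75 and 43.9 ± 4.58 CPM and Irf1 at 59.3 ± 14.8 and 52.9 ± 7.51 CPM. Irf5, the most abundant factor of the list by FPKM, stood at 468 ± 44.2 and 457 ± 32.6 CPM. Of 11 genes in that list, 6 tested inhibitors and 11 tested inducers, 0 passed in edgeR. At an unadjusted p under 0.05 there were 4, 0 and 4 of them, where 16.8% of all tested genes reached that level. Jak1, Jak2, Irf8, Mavs, Tbk1, Ikbke and Tlr7 stood toward recruited cells, where 8.13% of all tested genes did. Irf9 stood toward resident cells, where 8.65% did. The median log2 difference of these lists was 0.13, 0.05 and 0.55 in turn, against 0.01 over all tested genes. DESeq2 called Irf8, Jak1, Jak2 and Tbk1, which were all higher in recruited libraries without overlap. Toward recruited cells DESeq2 called 2.72% of all genes, and 12.2% of all tested genes lay apart in that direction. The effective lengths of Irf8, Jak1, Jak2 and Tbk1 were 2659, 5112, 4867 and 2844 bases, where the median of all tested genes with a length was 2471. None of these 4 genes passed in edgeR with or without the length correction, and the part of the length trend in their DESeq2 calls was not tested. The log2 differences were 0.52 for Irf8, 0.82 for Jak1, 1.32 for Jak2 and 0.60 for Tbk1, with adjusted p from 0.116 to 0.161 in edgeR. Ptpn6, a phosphatase, and Socs3 led the inhibitors at 693 ± 57.9 against 713 ± 67.0 CPM and 389 ± 8.73 against 519 ± 137 CPM. Unc93b1, which carries nucleic acid sensing Toll-like receptors to endosomes, and Myd88 led the inducers at 1295 ± 120 against 1250.0 ± 17.8 CPM and 221 ± 12.6 against 200.1 ± 25.03 CPM.

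Other interferon-stimulated genes, listed beside the members, resembled them in direction. Of 61 tested genes 40 lay toward resident and 21 toward recruited cells, and the median log2 difference was -0.36. Of all tested genes 49% lay toward resident cells, and their median was 0.01. In edgeR 1 of the 61 passed, where 0.317% of all tested genes did, and it stood on the recruited side. This was Cd274, which encodes PD-L1, at 59.5 ± 4.55 CPM in resident cells against 174 ± 18.0 CPM in recruited cells (log2 difference 1.55 ± 0.14 SE, edgeR adjusted p = 0.0103). It was called by edgeR in the opposite direction to Ifi27l2a. Without resident replicate 2 or 3 its adjusted p was 0.0529 or 0.0585, and without recruited replicate 1 or 2 it was 0.0577 or 0.0720. With resident replicate 1 as the lone resident library, the log2 difference of Cd274 was 1.45. With the length correction it was 1.33, with an adjusted p of 0.0174 in edgeR. By limma on unfiltered log2(FPKM + 1) the adjusted p of Cd274 was 0.0465. DESeq2 also called Psmb8, an immunoproteasome subunit, which was higher in resident cells at 537 against 358 CPM. Its log2 difference was -0.59 with an adjusted p of 0.103 in edgeR, and DESeq2 called 3.45% of all genes in that direction. Resident replicate 3 was the highest library for 22 of the 61 and resident replicate 2 the lowest for 24. Over all tested genes these shares were 21.2% and 26.3%, and over the members 56.1% and 53.7%. Cxcl9, a chemokine induced by interferon gamma and named here after its values were seen, was read at 2.94, 0 and 39.9 CPM in resident libraries and at most 0.889 CPM in recruited ones. Tgtp2 and Gbp4, chosen in the same way, reached 40.1 and 21.7 CPM in resident replicate 3, where no other library exceeded 15.1 and 4.96 CPM. No gene of this trio passed in edgeR, with adjusted p of 0.253 for Cxcl9, 0.419 for Tgtp2 and 0.755 for Gbp4. Other genes of the same families went the other way: Gbp9, at 44.6, 25.2 and 12.6 CPM, and Irgm2, at 50.5, 23.9 and 19.2 CPM in resident replicates 1 to 3, had resident replicate 3 as the lowest of the 6 libraries. The high level in that library is thus not shared by all genes of the IRG and GBP families.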

How the data were processed

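RNA of 6 pools of sorted cells was made into cDNA with SMART-Seq v4 and 18 cycles of pre-amplification, and sequenced in 2 runs, per the labels' protocols. The labels do not say which run held which library, so runs and groups cannot be told apart. There were no molecular identifiers, and floors cover counting error only. The authors deposited expected counts per gene, not normalized, and FPKM values, normalized by the authors for depth and length. The submitters' processing notes name STAR 2.5.3a, RSEM 1.2.28 and the mm10 build. No annotation is stated.

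Rows whose symbol had become a date (26 of 24848, 0.121 to 0.138% of counts) were left out. Expected counts were rounded and tested with edgeR 4.0.16 (R 4.3.3): TMM, filterByExpr, robust quasi-likelihood, group as the only term, Benjamini-Hochberg adjustment over 11354 genes. Standard errors are the log2 difference divided by the square root of F, with a prior count of 2 for log2 CPM. The members, lists and classes were chosen with earlier results of these data known. Values in every library are given for members past the threshold, without overlap, or among the 2 highest by FPKM in their role group, and also for Ifit2, Rsad2 and Iigp1 in whole or part, which were added after their values were seen. The code was tested on simulated data. Effective length was taken as count over FPKM and library total. Alternatives were other scalings and filters, DESeq2 1.42.0, limma 3.58.1 (voom, or log2(FPKM + 1) and log2(FPKM + 0.1)), a replicate block, each library left out, resident replicates 2 and 3 left out, and the length correction, both of the last chosen after seeing the data. Replicates are separate pools, and same-numbered libraries did not deviate together (correlations 0.02, 0.06 and 0.05). A gene that the naming rule lists is not reported here.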

Additional observations from a re-analysis of the deposited data

How the results depend on the processing

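Among all tested genes, 36 passed in edgeR. The count was 58 with no filter, 73 with a filter of 10 CPM in 3 libraries, 726 with DESeq2, 76 with voom and library weights, 97, 63 and 8 with limma on log2(FPKM + 1), log2(FPKM + 0.1) and unfiltered log2(FPKM + 1), 11 without resident replicates 2 and 3, and from 0 to 580 on leaving out each library in turn (580, 3 and 5 without resident replicate 1, 2 or 3, and 1, 0 and 13 without recruited replicate 1, 2 or 3). The 0 came without recruited replicate 2, where edgeR gave 1258 genes at an unadjusted p under 0.05. Members past the threshold numbered 3 with DESeq2, 0 with unfiltered log2(FPKM + 1), 0 without resident replicates 2 and 3, 0 with the length correction and 0 to 1 on leaving out a library, against 1 in the main analysis. Pathway genes past it numbered 1 of 94 tested in the main analysis, where 0.317% of all tested genes passed. With DESeq2 they numbered 6, where 6.17% of all genes passed. On leaving out a library they ran from 0 to 6, the 6 without resident replicate 1, where 580 of 11598 tested genes passed. Medians moved in all 19 alternatives by less than the SD of the list between libraries, pooled over both groups, which is mostly resident spread; on leaving out a library they ran from -0.60 to -0.05 for all members, from -0.64 to -0.15 for type I leaning and from -0.85 to 0.09 for type II leaning genes.

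The labels do not say whether same-numbered libraries came from the same mice, and the weak correlations of their deviations do not settle it, so the numbers were not used as pairs. With the replicate block 28 genes passed, Ifi27l2a among the members again (log2 difference -1.95, adjusted p = 0.0248), and the sign of Ifit1 turned to 0.19 and that of Oasl2 to 0.063. Of 454 alternative values of the 24 members with values given in every library by rule, 416 kept direction and side of the threshold and 29 changed sign. Over all 41 members 54 of 775 values changed sign, 0 of them past the threshold. Ifit1 was at 0.16 with voom, 0.056 with voom and library weights, 0.19 with log2(FPKM + 1), filtered or not, and 0.33 with log2(FPKM + 0.1), and Oasl2 at 0.031, 0.029, 0.069 and 0.075. With the length correction Ifitm2 was at 0.0065, Ifitm3 at 0.12 and Parp9 at -0.10. Without resident replicates 2 and 3, Dtx3l was at -0.33, Gbp2 at 0.26, Ifi204 at -0.11 and Mx1 at 0.20. Leaving out each library gave ranges that crossed 0 for 14 of the 41 members: -0.91 to 0.11 for Gbp2, -0.14 to 0.18 for Ifi204, -0.94 to 0.093 for Ifi47, -0.89 to 0.040 for Ifit1, -0.60 to 0.013 for Irgm1, -1.15 to 0.80 for Mx1, -0.37 to 0.34 for Oasl2, -0.0071 to 0.22 for Parp9, -0.46 to 0.031 for Usp18, -0.31 to 0.17 for Dhx58, -0.40 to 0.47 for Gbp7, -0.070 to 0.80 for Ifit2, -0.33 to 0.38 for Igtp and -0.20 to 0.71 for Rsad2. The cause of these changes was not tested. At 3 libraries a group, low members such as Mx1, Mx2, Ifi44 and Iigp1 have standard errors of 0.76 to 1.62 log2 units.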
